A study of Mus musculus with 6 samples.

Results

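The 9 genes followed here were the chemokine receptor genes Ccr1, Ccr2, Ccr7, Ccrl2, Cxcr2, Cxcr3, Cxcr4, Cxcr5 and Cxcr6, taken by gene symbol from 19057 genes with a named probe on an Illumina mouse expression array. All 9 genes had a probe, and 6 of them had 1 above the detection level described below in at least 3 of 6 mice. The arrays measured total RNA of splenic cells from 3 C57BL/6 (B6) wild-type mice and 3 TLR7tg mice, which carry a transgene of Tlr7, a sensor of single-stranded RNA in endosomes, and model systemic lupus erythematosus. The design text calls the cells NK1.1+ in both groups, and the labels of single samples call them NK cells in B6 and NK1.1+ cells in TLR7tg. NK1.1 is the product of Klrb1c and marks natural killer (NK) cells in B6 mice. Age, sex, the way the cells were isolated and the promoter of the transgene are not given in the sources used here, and no treatment is named for either group.

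Chemokine receptors are G protein-coupled receptors with which leukocytes sense gradients of chemokines and find their way between blood and tissue. CXCR3 and CXCR6 guide effector T cells and NK cells to sites that make interferon-induced chemokines or membrane-bound CXCL16. CCR7 and CXCR5 guide lymphocytes and dendritic cells into the T cell zones and follicles of lymphoid organs. CCR1, CCR2 and CXCR2 act on monocytes and neutrophils, CCRL2 is an atypical receptor that binds chemerin without the usual signalling, and CXCR4 holds many leukocyte types in the bone marrow through CXCL12.

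Values are the deposited normalised log2 signals, and differences are TLR7tg minus B6 on that scale. A signal of 6.9 or more was taken as detected, and genes detected in at least 3 mice were tested with limma, adjusted over all kept probes. Tlr7 itself had a mean of 9.13 in B6 (SD 0.57, n = 3) and of 13.80 in TLR7tg (SD 0.71, n = 3). The cells of the groups also differed in their marker genes, as the plot of marker lists by mouse shows. These lists were chosen with earlier results of these data known, so their counts are a description. Over all 9173 tested genes, 6.97% fell and 7.74% rose. All 12 measured NK markers fell in TLR7tg, their mean log2 signal lying between 11.01 and 11.19 in B6 mice and between 7.55 and 8.63 in TLR7tg mice, and Ncr1 and Eomes were below 6.9 in every TLR7tg mouse. Klrb1c, which encodes the NK1.1 of the labels, had means of 9.64 in B6 (SD 0.59, n = 3) and 7.47 in TLR7tg (SD 0.42, n = 3). Of 6 tested T cell markers 4 fell (Cd3d, Cd3e, Cd3g and Lat), and the means of the 6 were 9.13 to 9.36 in B6 and 7.84 to 8.05 in TLR7tg. Cd8b1 (difference -0.18, limma adjusted p = 0.650) and Lef1 (-0.38, adjusted p = 0.180) did not pass. Cd5 and Cd8a were below 6.9 in every mouse, and Cd4 reached 6.9 in only 1 B6 mouse, so these were not tested. Of 10 tested neutrophil markers 9 rose, with means of 6.86 to 7.51 in B6 and 8.57 to 11.90 in TLR7tg, and of 10 tested monocyte or macrophage markers 9 rose, with means of 8.76 to 9.86 and 11.22 to 11.61. Of 4 tested erythroid markers 3 rose, with means of 7.73 to 8.10 in B6 and 8.72 to 9.72 in TLR7tg. None of 5 tested B cell markers passed, and their means were 8.42 to 8.97 in B6 and 8.28 to 9.0 in TLR7tg. In such bulk samples fewer cells of a type and less RNA per cell cannot be told apart.

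**Figure D1:**
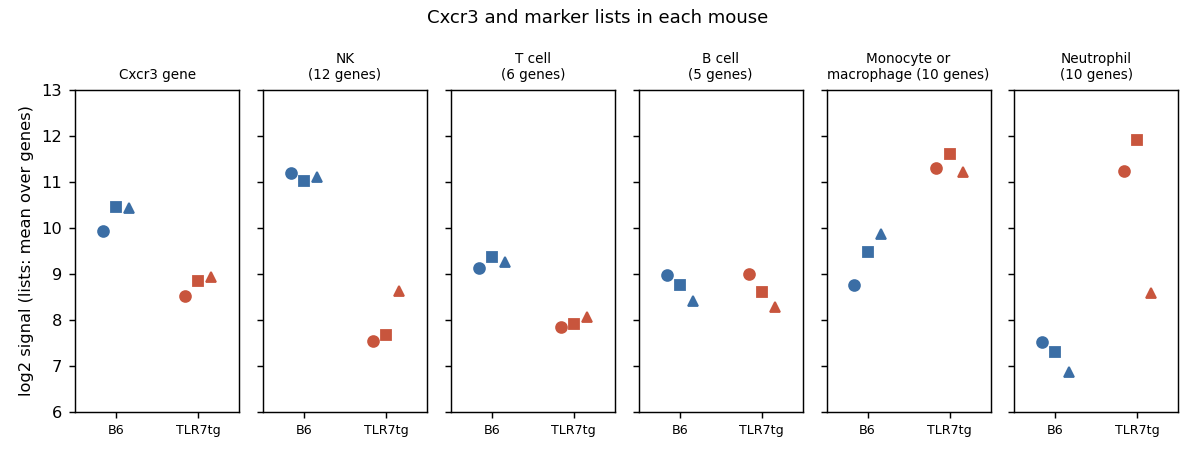
Log2 signal of Cxcr3 (left) and mean log2 signal over the tested genes of 5 marker lists (other panels), 1 symbol per mouse with the same shape for the same replicate number, which is only a name. Cxcr3, NK and T cell markers are lower in all 3 TLR7tg mice, monocyte and neutrophil markers are higher, and the B cell markers overlap.

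RefSeq promoter sequences of build GRCm38.p6 were at hand for 7 of the 9 genes (not for Ccr7 and Cxcr5). The 250 bases before the listed transcription start are shown, on the gene's own strand, for Cxcr3, Cxcr6, Cxcr2 and Cxcr4. Cxcr3 is the receptor that differed between the groups, and Cxcr6 is also a receptor of NK and effector T cells. Cxcr2 and Cxcr4 had the next largest differences. Capitals mark matches, on either strand, to 4 motifs: AGGTGTGA (T-box), TGTGGT (RUNX), GAGGAAGT (PU.1 and other ETS factors) and GGGCGG (GC box). No match overlaps another.
Cxcr3, chrX:101734148-101734397, minus strand: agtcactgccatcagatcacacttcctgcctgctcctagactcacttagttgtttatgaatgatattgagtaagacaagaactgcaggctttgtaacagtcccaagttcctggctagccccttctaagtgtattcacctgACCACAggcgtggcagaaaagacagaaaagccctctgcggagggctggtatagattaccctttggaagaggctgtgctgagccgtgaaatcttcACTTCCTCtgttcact
Cxcr6, chr9:123806227-123806476, plus strand: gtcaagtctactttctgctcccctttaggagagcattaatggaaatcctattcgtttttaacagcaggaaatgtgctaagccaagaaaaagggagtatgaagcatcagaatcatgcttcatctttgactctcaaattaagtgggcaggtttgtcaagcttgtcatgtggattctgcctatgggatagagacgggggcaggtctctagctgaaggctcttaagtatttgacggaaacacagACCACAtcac
Cxcr2, chr1:74153744-74153993, plus strand: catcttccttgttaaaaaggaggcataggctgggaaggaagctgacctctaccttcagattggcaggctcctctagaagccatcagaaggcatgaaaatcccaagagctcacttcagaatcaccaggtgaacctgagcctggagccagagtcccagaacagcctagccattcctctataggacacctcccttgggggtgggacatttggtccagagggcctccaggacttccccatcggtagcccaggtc
Cxcr4, chr1:128592300-128592549, minus strand: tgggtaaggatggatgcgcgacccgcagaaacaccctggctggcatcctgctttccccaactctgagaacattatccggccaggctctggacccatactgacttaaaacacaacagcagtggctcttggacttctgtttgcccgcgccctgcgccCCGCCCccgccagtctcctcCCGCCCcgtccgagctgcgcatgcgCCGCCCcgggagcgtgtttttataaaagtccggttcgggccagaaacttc
Cxcr3 held 1 RUNX match and 1 PU.1/ETS match, which read ACCACA and ACTTCCTC on the printed strand, Cxcr6 held 1 RUNX match, Cxcr4 held 3 GC boxes and Cxcr2 held none of the 4 motifs. Among the genes not printed, Ccr1 held a RUNX match and 1 of the 3 Ccrl2 promoters a GC box. Of all 32851 mouse promoters, 14.0% held the RUNX letters, 2.44% the PU.1/ETS letters and 32.7% the GC box. The T-box letters were in 1.12% of all promoters and in none of the 9 promoters of these 7 genes. The matches are a description of these windows, and binding was not measured.

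Cxcr3, the receptor for the interferon-induced chemokines CXCL9 and CXCL10, fell in TLR7tg cells. Its signal was 9.94, 10.44 and 10.42 in B6 replicates 1, 2 and 3, and 8.51, 8.84 and 8.93 in TLR7tg replicates 1, 2 and 3. The highest TLR7tg mouse lay 1.0 below the lowest B6 mouse, and all 6 values were above the detection level. The means were 10.27 ± 0.29 (SD, n = 3) and 8.76 ± 0.22 (SD, n = 3), a difference of -1.51 (SE 0.21, 95% interval -1.98 to -1.03, limma adjusted p = 0.00199). On this compressed scale that is 2.84-fold, with an interval from 2.05-fold to 3.94-fold. The 2 mice whose arrays the labels name, called the named slide below, differed by -1.43. The other 4 mice, for which no array is named, differed by -1.54. The slide is inferred from an array code that both named mice share, since neither the labels nor the file headers use that word. A larger absolute difference was found in 4.73% of the 9173 genes tested, and Cxcr3 ranked 174 by size among the 639 genes that fell. The NK markers and the 4 T cell markers that fell moved the same way as Cxcr3, which is known on both cell types. The part of these markers in the fall of Cxcr3 was not tested. The transcripts of Cxcr3 were still detected in each TLR7tg mouse, as were those of NK markers such as Nkg7 (TLR7tg mean 9.98), Klrd1 (9.69) and Prf1 (9.02). Ncr1, with a B6 mean of only 7.46, and Eomes were detected in no TLR7tg mouse, Klra8 in 1 and Il2rb in 2.

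Cxcr3 was the only called gene among the 6 tested receptors: 1 fell, 0 rose and 5 did not pass. Of all 9173 tested genes 6.97% fell and 7.74% rose, and 14.7% passed in either direction. The unadjusted p was under 0.05 for 1 of the 6 receptors as well, against 2544 of all 9173 tested genes. The groups did not overlap in 1 of the 6, against 32.7% of all tested genes. The median difference of the 6 receptors was 0.05, and that of all tested genes was -0.06.

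**Figure D2:**
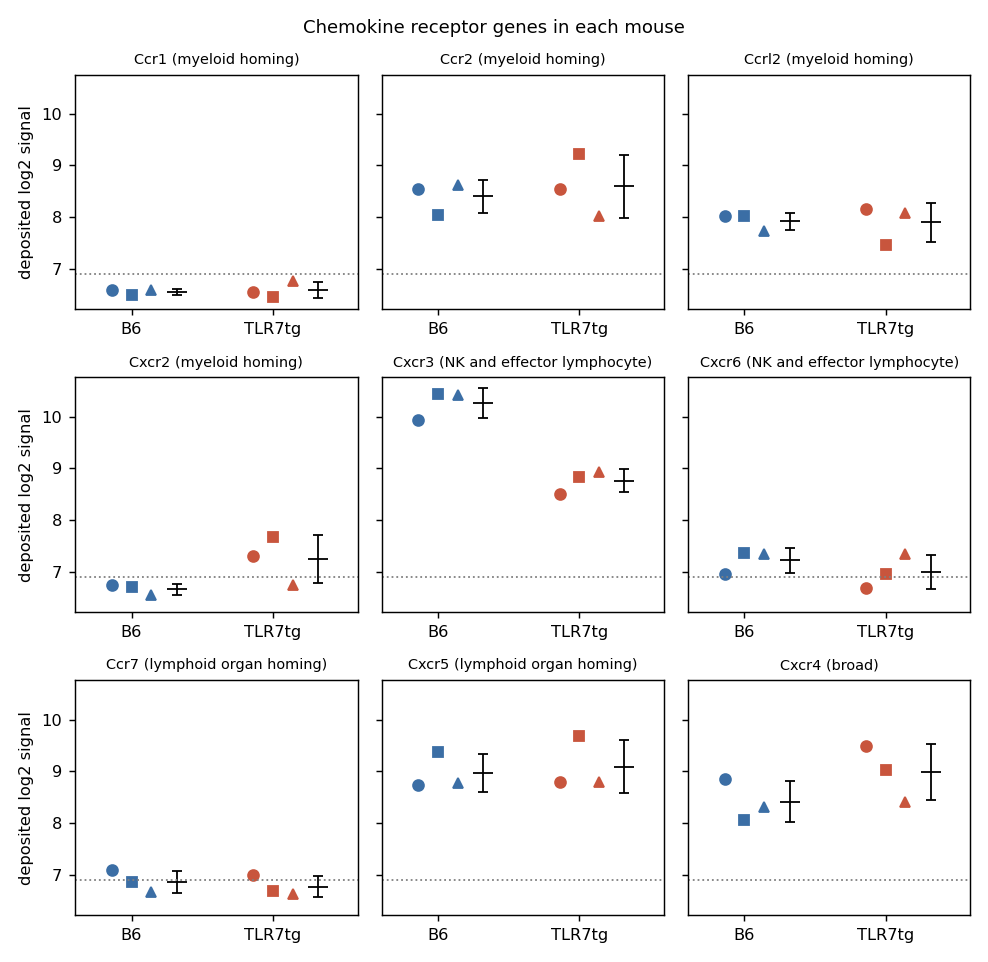
Deposited log2 signal of the 9 receptor genes, each read through its brightest probe, in 3 B6 and 3 TLR7tg mice (symbols), with the mean and SD of each group in black and the detection level of 6.9 as a dotted line. The groups are apart for Cxcr3 alone, Ccr1 stays under the line in every mouse, and Cxcr2 is above it in 2 TLR7tg mice.

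The profiles of 3 genes over the 6 mice were closest to that of Cxcr3 by the root mean square difference after each gene's own mean was subtracted. They were Usp20, a deubiquitinase (0.10), Lat, an adaptor of T cell receptor signalling (0.11), and Ddb2, a DNA damage recognition protein (0.13). Lat was 8.47, 8.91 and 9.08 in the B6 mice and 6.99, 7.15 and 7.30 in the TLR7tg mice. Lat is also in the T cell marker list above.

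Cxcr6, the receptor for CXCL16 on NK and effector T cells, did not pass. Its signal was 6.95, 7.37 and 7.35 in the B6 mice and 6.68, 6.96 and 7.35 in the TLR7tg mice. The groups overlapped, since TLR7tg replicate 3 matched B6 replicate 3 to within 0.01 while TLR7tg replicate 1 lay below the detection level. The difference was -0.23 (SE 0.22, 95% interval -0.73 to 0.27, limma adjusted p = 0.616). It was -0.07 without TLR7tg replicate 1, -0.40 without TLR7tg replicate 3 and -0.47 after normexp background correction, and passed in none of these. Where scanner detection p-values could be assigned, the Cxcr6 probe was detected on both technical arrays of B6 replicate 1 (p of 0.00321 and 0) and on neither of TLR7tg replicate 1 (0.205 and 0.260). Signals this close to background hold little room for a fall: a decrease of Cxcr6 as large as that of Cxcr3 would end below 6.10, the lowest value of the whole table.

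Among receptors of myeloid cells Ccr2 and Ccrl2 were tested and did not pass, while Ccr1 and Cxcr2 were too dim to be tested. The monocyte and neutrophil markers rose. Ccr2, which brings inflammatory monocytes out of the bone marrow, was 8.54, 8.04 and 8.62 in the B6 mice and 8.54, 9.22 and 8.02 in the TLR7tg mice. TLR7tg replicate 2 was the highest and TLR7tg replicate 3 the lowest of the 6, so that the TLR7tg mice enclosed all B6 mice. The Ccr2 difference was 0.19 (SE 0.30, 95% interval -0.50 to 0.88, limma adjusted p = 0.785), and -0.12 without TLR7tg replicate 2. This value rests on 1 of the 2 Ccr2 probes; the other lay between 6.52 and 6.66 in all mice, below the detection level. The array's annotation assigns the undetected probe to the RefSeq transcript of Ccr2 and the detected one to a cDNA clone, so the Ccr2 values rest on the sequence of that clone.

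Ccrl2, the chemerin-binding atypical receptor, was 8.02, 8.02 and 7.74 in the B6 mice and 8.16, 7.46 and 8.07 in the TLR7tg mice. Its highest and its lowest value were both in TLR7tg mice. The difference was -0.02 (SE 0.22, 95% interval -0.53 to 0.48, limma adjusted p = 0.972), which leaves room for a change of up to 1.44-fold. On the named slide alone it was 0.14, and it was -0.11 for the remaining 4 mice. Without TLR7tg replicate 2 it was 0.19.

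Cxcr2, the neutrophil receptor for CXCL1 and related chemokines, was not tested, since neither of its probes reached the detection level in 3 mice. Its brightest probe read 6.75, 6.70 and 6.55 in the B6 mice and 7.31, 7.67 and 6.75 in the TLR7tg mice. On this probe all B6 mice were below the detection level, TLR7tg replicates 1 and 2 stood above every B6 mouse, and TLR7tg replicate 3 was level with B6 replicate 1. The difference of means was 0.58, and without a filter on dim probes it had an unadjusted p of 0.0421 and an adjusted p of 0.364 by limma. TLR7tg replicate 3 also had the lowest neutrophil marker mean of its group, 8.57 against 11.22 and 11.90, and the part of those markers in the Cxcr2 signal was not tested. The second Cxcr2 probe differed the other way (-0.25), with 5 of its 6 values under 6.9 and the highest, 7.0, in B6 replicate 3. On the scanner arrays of TLR7tg replicate 1 the brightest probe had detection p-values of 0 and 0, and on those of B6 replicate 1 of 0.00855 and 0.479.

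Ccr1, a receptor of monocytes and neutrophils for CCL3, CCL5, CCL6 and CCL9, lay between 6.46 and 6.77 in the 6 mice and reached the detection level in none. Its scanner detection p-values were between 0.571 and 0.716 on the 4 assigned arrays. No fold is given for a gene at background in both groups.

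Of the receptors of lymphoid organ homing Cxcr5 did not pass and Ccr7 was not tested. Cxcr5, which leads B cells and follicular helper T cells to CXCL13 in follicles, was 8.73, 9.38 and 8.77 in the B6 mice and 8.80, 9.69 and 8.78 in the TLR7tg mice. The groups lay over each other, with replicate 2 the highest in both. The Cxcr5 difference was 0.13 (SE 0.29, 95% interval -0.52 to 0.78, limma adjusted p = 0.859). The other Cxcr5 probes gave 0.02 and 0.11, so all 3 probes differed by less than the spread between mice. The B cell markers given above likewise did not pass. Cd79b, a chain of the B cell receptor complex, had means of 10.94 in B6 (SD 0.61, n = 3) and 11.01 in TLR7tg (SD 0.68, n = 3). The differences of the others were 0.08 for Ebf1, -0.20 for Ms4a1, 0.22 for Blk and -0.61 for Fcer2a (95% interval -1.20 to -0.01, limma adjusted p = 0.191). Pax5 and Cr2, also on the B cell list, were below 6.9 in every mouse and were not tested.

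Ccr7, the receptor for CCL19 and CCL21, was 7.09, 6.86 and 6.66 in the B6 mice and 7.0, 6.69 and 6.63 in the TLR7tg mice. Only replicate 1 of each group reached 6.9, so Ccr7 was not tested, and the groups overlapped with a difference of -0.10. In those 2 mice the scanner called the probe detected on all 4 arrays (p of 0), so the transcript was present there at a low level.

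Cxcr4, the receptor for CXCL12, had the largest difference of the 5 followed receptors that were tested and did not pass. It was 8.84, 8.07 and 8.31 in the B6 mice and 9.50, 9.03 and 8.41 in the TLR7tg mice. TLR7tg replicates 1 and 2 were above all B6 mice, and TLR7tg replicate 3 lay below B6 replicate 1. The difference was 0.57 (SE 0.30, 95% interval -0.11 to 1.26, limma adjusted p = 0.285). Without TLR7tg replicate 1 it was 0.32, and without TLR7tg replicate 3 it was 0.86. On the named slide alone it was 0.66, and it was 0.53 for the remaining 4 mice. Fitted with the slide as a block, Cxcr4 had an adjusted p of 0.0648.

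**Figure D3:**
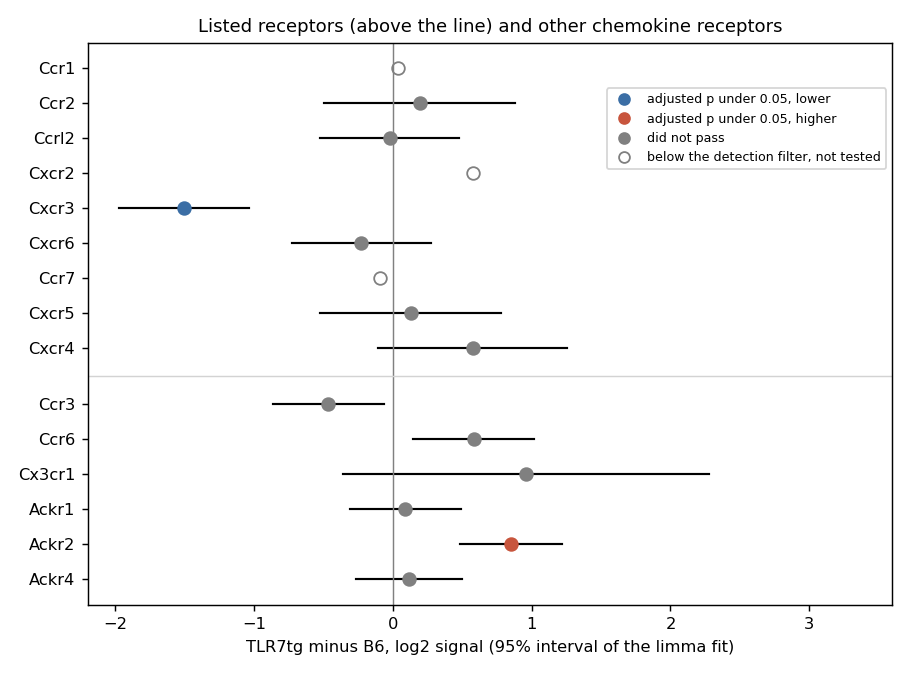
Difference TLR7tg minus B6 in log2 signal for the 9 receptors (above the line, ordered by role) and for 6 other chemokine receptors that were tested, with the 95% interval of the limma fit. Filled coloured points passed an adjusted p of 0.05, grey points did not, and open points lay below the detection filter and were not tested; Cxcr3 (-1.51) and Ackr2 (0.85) are coloured.

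The difference of Cxcr3 was set against that of each other tested receptor within the same mice. Cxcr3 was picked as the only called receptor on these same values, so the direction of these comparisons largely restates its call. The signal of Cxcr3 less that of Cxcr6 was lower in TLR7tg than in B6 mice by a difference of -1.28, with SDs of 0.16 and 0.05 (n = 3 each). Against Ccrl2, Cxcr5, Ccr2 and Cxcr4 the same quantity was -1.48, -1.63, -1.70 and -2.08. In all 5 comparisons the 3 TLR7tg mice lay below the 3 B6 mice. The two-sided exact permutation p was 0.1 in each, also when adjusted over the 5 pairs, and this is the smallest p that 3 against 3 mice can give. Signals near background are compressed, most of all for Cxcr6, which limits these comparisons.

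Of 14 other chemokine receptor genes with a probe, 6 were tested. Ackr2, an atypical receptor that scavenges inflammatory CC chemokines, rose, and the other 5 did not pass. Over all 9173 tested genes, 7.74% rose and 14.7% passed in either direction. The groups did not overlap in 3 of the 6, against 32.7% of all tested genes. Ackr2 was 6.99, 6.80 and 6.76 in the B6 mice and 7.72, 7.69 and 7.69 in the TLR7tg mice. Its groups were apart, with a difference of 0.85 (SE 0.16, limma adjusted p = 0.00876). Only 1 of the 3 B6 values reached 6.9, and after normexp background correction the difference was 1.53 (adjusted p = 0.00430). Without B6 replicate 2 Ackr2 did not pass (adjusted p = 0.0504). Cx3cr1, the fractalkine receptor of patrolling monocytes and NK cells, was 10.21, 9.36 and 9.06 in the B6 mice and 12.00, 10.07 and 9.43 in the TLR7tg mice (difference 0.96, adjusted p = 0.369). The 3 values of each group were spread widely for Cx3cr1 and overlapped. A block for the slide brought Cx3cr1 past the threshold (adjusted p = 0.0426), as did a block for neighbouring mouse identifiers (0.0309), and its difference was 1.79 on the named slide alone and 0.54 in the remaining 4 mice. Without TLR7tg replicate 1 the Cx3cr1 difference was 0.21 (adjusted p = 0.762), and without TLR7tg replicate 3 it was 1.49 (0.134). Ccr6, a receptor of B cells and IL-17-producing T cells, differed by 0.58 (adjusted p = 0.0857) without overlap of the groups. It passed in 3 of 16 alternatives, a block for the slide (0.0180) or the identifiers (0.0199) and array weights (0.0364). When its 2 kept probes were averaged, the Ccr6 difference was 0.38 (adjusted p = 0.406).

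Ccr3, the eotaxin receptor of eosinophils and basophils, was 7.17 ± 0.21 (SD, n = 3) in B6 and below 6.9 in all TLR7tg mice. Its groups did not overlap, but it did not pass (difference -0.46, adjusted p = 0.135) except after normexp background correction (-1.01, adjusted p = 0.0480). Ackr1 (0.09) and Ackr4 (0.12) did not pass. The median difference of the 6 genes was 0.35. Ccr4, Ccr8, Ccr9, Ccr10, Ccr1l1, Cxcr1, Xcr1 and Ackr3 reached the detection level in none of the 6 mice. In RefSeq assembly GRCm38.p6 Ccr1, Ccr2 and Cxcr6 lie close together on one chromosome with Ccr9, Xcr1, Ccr1l1 and Ccr3. Of these 7 genes 3 were tested (Ccr2, Ccr3 and Cxcr6) and 0 passed by limma. Of the 3, 1, Ccr3, had an unadjusted p under 0.05, as did 2544 of all 9173 tested genes.

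The chemokines that bind these receptors moved in both directions. Of 27 listed ligand genes, 25 had a probe and 11 were tested, of which 5 rose, 2 fell and 4 did not pass, and the groups did not overlap in 9. Of all 9173 tested genes 14.7% passed and 32.7% did not overlap. The CXCR3 ligand gene Cxcl9 was 7.30, 7.93 and 7.92 in the B6 mice and 9.04, 10.57 and 11.32 in the TLR7tg mice. It rose by 2.59 (SE 0.49, limma adjusted p = 0.00874), opposite to its receptor, and Cxcl10 rose by 1.27 (SE 0.34, adjusted p = 0.0390). Cxcl10 did not pass when any mouse but TLR7tg replicate 1 was left out (adjusted p from 0.0770 to 0.139), nor without a filter on dim probes (0.173), where Cxcl9 did not pass either (0.0738). Both had a lower value in TLR7tg replicate 1 than in the other TLR7tg mice.

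The ligands of CCR1 split. Ccl5 fell by 3.20 (SE 0.48, limma adjusted p = 0.00288) and Ccl3 was 11.44, 11.40 and 10.24 in the B6 mice and 8.80, 9.28 and 9.72 in the TLR7tg mice (difference -1.76, adjusted p = 0.0112). Leaving out B6 replicate 2 ended the call of Ccl3 (adjusted p = 0.0563), as did testing all probes (0.0740). Ccl6 and Ccl9, CC chemokines made by myeloid cells, rose by 1.69 and 2.13 (adjusted p = 0.00324 and 0.00793), and Ccl9 did not pass without a filter (0.0635). Ppbp, a platelet chemokine that binds CXCR2, was below 6.9 in all B6 mice and 7.34 ± 0.11 (SD, n = 3) in TLR7tg, at least 1.35-fold higher (adjusted p = 0.0252). Ppbp did not pass when any mouse but TLR7tg replicate 1 was left out (adjusted p from 0.0537 to 0.104). Of 3 tested platelet markers 1, Ppbp itself, rose and 1, Gp1bb, fell. Cxcl16 (0.86), Mif (-0.67), Rarres2, which encodes chemerin (-0.54), and Ccl4 (-1.73) did not pass (adjusted p between 0.0630 and 0.212). The ligand genes of CCR2 (Ccl2, Ccl7 and Ccl12), of CCR7 (Ccl19 and Ccl21a) and of CXCR5 (Cxcl13) were detected in none of the 6 mice, and Cxcl12, the ligand of CXCR4, in 1. Also detected in none were Cxcl1, Cxcl2 and Cxcl3, ligand genes of CXCR2, and Cxcl11, a ligand gene of CXCR3. The same held for Cxcl15, Ccl8 and Ccl21c.

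**Figure D4:**
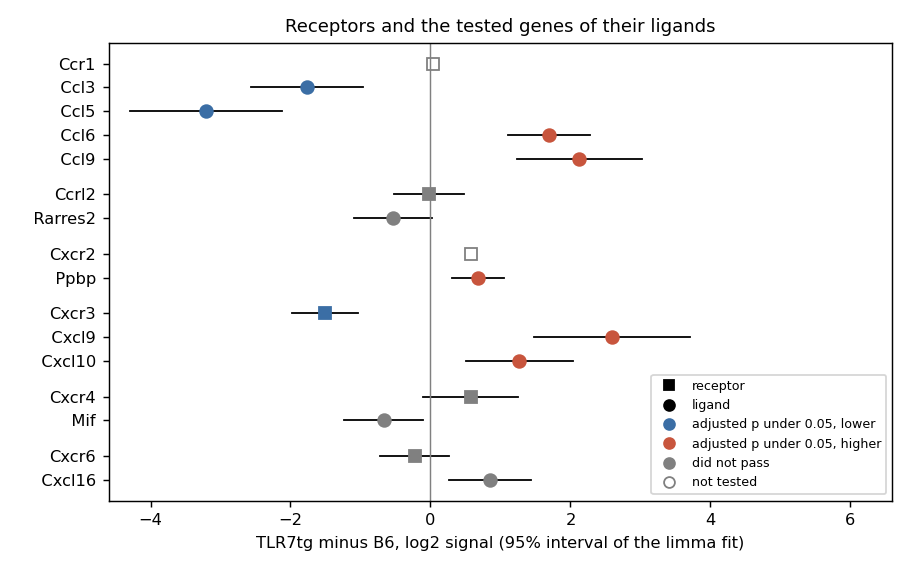
Difference TLR7tg minus B6 in log2 signal of 6 receptor genes (squares) and of the tested genes of their ligands (circles, listed under the receptor; Ccl4 is not drawn), with the 95% interval of the limma fit. Blue and red passed as lower and higher, grey did not pass and open squares were not tested; Cxcr3 is lower while Cxcl9 and Cxcl10 are higher, and the ligands of CCR1 lie on both sides of 0.

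Genes that act downstream of the receptors were read from a further list. Of 33 listed genes of G proteins, arrestins, receptor kinases and the machinery of chemotaxis, 30 were tested, of which 2 rose, 1 fell and 27 did not pass, against 14.7% called of all genes tested. The median of their differences was 0.13, and that of all genes was -0.06. Prex1, an activator of Rac downstream of G proteins, was 11.34, 11.24 and 10.84 in the B6 mice and 9.67, 10.04 and 9.85 in the TLR7tg mice. Its lowest B6 value lay 0.80 above its highest TLR7tg value, and it fell by 1.29 (SE 0.20, limma adjusted p = 0.00332). Pik3r6, a regulatory subunit of phosphoinositide 3-kinase gamma, was 6.83, 6.89 and 7.16 in the B6 mice and 8.12, 8.39 and 8.25 in the TLR7tg mice and rose by 1.29 (SE 0.18, adjusted p = 0.00196). Arrb1, encoding beta-arrestin 1, which ends receptor signalling, rose by 0.84 (SE 0.20, adjusted p = 0.0221). The call of Arrb1 ended when B6 replicate 1 (adjusted p = 0.0609), B6 replicate 2 (0.103) or TLR7tg replicate 3 (0.0684) was left out. It also ended in the 4 mice outside the named slide (0.0837) and when its probes were averaged (0.50, adjusted p = 0.0808).

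**Figure D5:**
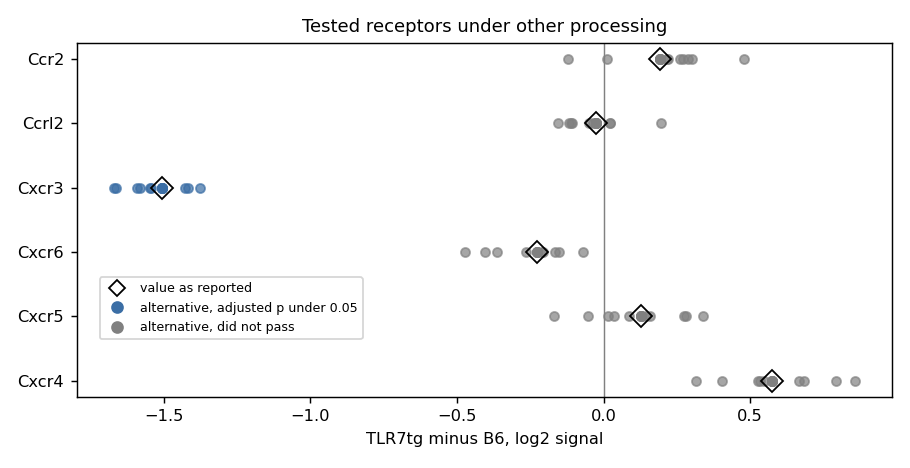
Difference TLR7tg minus B6 in log2 signal of the 6 tested receptors as reported (diamonds) and under each alternative of processing or choice of mice (circles). Cxcr3 lies between -1.67 and -1.38 and passes in all 16 alternatives, and the other 5 receptors pass in none of those run.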

How the data were processed

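The authors deposited normalised log2 values of 45281 probes in 6 mice; after sorting, the columns differ by at most 0.00850, as after quantile normalisation, by a tool not given in the sources used here. Values of both mice called replicate 1 are means of 2 technical arrays, per the labels. The deposited scanner table holds raw linear probe intensity and, per the file headers, a detection p-value per array. Its 4 arrays named in the labels were used, and the other 8 columns, which match the labels of no mouse, were not. The deposited log2 values followed the log2 scanner signal in rank with slopes of 0.706 and 0.601, so folds hold on the deposited, narrower scale. The title of TLR7tg replicate 1 carries the mouse identifier of B6 replicate 1, but its description gives a different, transgenic identifier. Groups follow the cell line label, which reads B6 or TLR7tg.

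From 6.9 upward at least 95% of probes in each bin of 0.1 passed a detection p of 0.05 in each mouse whose arrays are named. The 16535 probes that reached 6.9 in at least 3 mice were kept, and the brightest of them stood for each of 9173 genes, named by the platform annotation (1 symbol for 34885 probes, several for 18, none for 10378). Differences were fitted by limma 3.58.1 (R 4.3.3), with Benjamini-Hochberg adjustment over kept probes and a threshold of 0.05. The test was checked on simulated data. Where a whole group lay below 6.9, the fold is a bound against 6.9. Mice are separate animals, so p-values measure the spread between mice, and their number limits the precision. Named genes were the 9 receptors, all other tested chemokine receptors, the ligand and signalling genes past the threshold and the 3 nearest profiles of each called receptor; other named genes were chosen after their values were seen. The members and lists were chosen with earlier results of these data known. Alternatives were the filter, the probe rule, a trended and robust fit, array weights, normexp at offset 16, slide and identifier blocks, the 4 mice outside the named slide, and leaving out each mouse.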

Additional observations from a re-analysis of the deposited data

How the results depend on the processing

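Cxcr3 fell in all 16 alternatives (difference from -1.67 to -1.38, adjusted p from 0.000217 to 0.0149), and the counts of the 9 receptors stayed at 1 lower and 0 higher. Of the receptors that did not pass, Ccr2, Ccrl2 and Cxcr5 changed sign in some alternatives (1, 3 and 2 of 16) and Cxcr4 and Cxcr6 in none run; Cxcr6 was not tested with detection in all 6 mice. Over all genes, 1118 were higher and 1166 lower with neighbouring mouse identifiers as a block, 1083 lower with the slide as a block and 459 higher without a filter, and leaving out 1 mouse gave 421 (without B6 replicate 2) to 756 higher and 341 (without B6 replicate 2) to 629 lower, with 411 lower without B6 replicate 3. Of the other chemokine receptors 3 were higher with either block, 2 with array weights and 0 with detection in all 6 mice, and 1 was lower with normexp; leaving out 1 mouse gave 0 to 1 higher. Of the ligand genes 4 were lower with either block and with array weights, 2 were higher and 1 lower without a filter, and leaving out 1 mouse gave 3 to 5 higher and 1 to 3 lower. Of the signalling genes 4 were higher and 3 lower with the identifier block, 2 lower with the slide as a block, 1 higher and 2 lower in the 4 mice outside the named slide, and 1 higher with detection in all 6 mice and when probes of a gene were averaged; leaving out 1 mouse gave 1 to 2 higher and 1 to 2 lower. The cause of these changes was not tested. The labels do not say that neighbouring mouse identifiers are pairs, and they name no array for the 4 mice outside the named slide. Both blocks are therefore alternatives only. Ccr1, Ccr7 and Cxcr2 are limited by signal over background, which allows no statement on a fall.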
